A study of Mus musculus with 7 samples.

Results

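A set of 282 bins of 500 bp, among the 5451548 bins of the mouse build mm9 that were counted, held between 29.8% and 74.0% of the reads of each library in a survey of 5-hydroxymethylcytosine (5hmC) in mouse hippocampus. These bins, called high-count bins here, were selected on their measured values: they are the bins of chromosomes 1 to 19 and of the mitochondrial chromosome whose raw counts averaged more than 100 in the 7 libraries. Bins at most 10 kb apart were joined, which gave 64 blocks. A block is named by its chromosome and a letter for its order along it, so that chr2d is the fourth block of chromosome 2. Because the counts chose the bins, their height is a description and no result, and only their composition, their order within a library and the comparison of genotypes were examined further.

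DNA carrying 5hmC was pulled down by an antibody and read on an Illumina HiSeq sequencer, per the labels' protocols. Conditional knockout of Tet2 (Tet2 CKO) was represented by 4 libraries and the wild type (WT) by 3. Both groups were of strain C57BL/6 and unstressed, and the tissue of both was hippocampus. The Cre driver, the cells in which Tet2 was deleted, and the age and sex of the mice are not stated in the labels. Nothing in the labels ties the libraries to separate animals, so a p-value here reflects only how far these libraries differ among themselves, and that spread may be technical.

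5hmC arises when the TET dioxygenases, of which Tet2 encodes one, oxidise 5-methylcytosine, and it is abundant in the DNA of neurons. Mouse chromosomes begin with a centromere flanked by long arrays of satellite repeats, and they end in telomeric repeats. An assembly holds few of the many copies of such a repeat, so reads from all copies can pile up on few positions. Mitochondrial DNA is a small circle present in many copies per cell, and stretches of it also lie inserted in nuclear chromosomes. No block was matched to a repeat annotation or to a genome sequence, so "satellite-like" remains a working name that was not checked here.

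The libraries differed more in how much the high-count bins took than in the shares of the 4 blocks with nearly all of those reads. Many smaller blocks varied more: 15 of the 64 blocks differed by more than 4-fold in share between libraries. The high-count bins held 50.4%, 69.7%, 74.0% and 50.2% of the reads in Tet2 CKO replicates 1 to 4, against 29.8%, 54.2% and 49.5% in WT replicates 1 to 3. Within each same-numbered pair, replicates 1 to 3, the Tet2 CKO library had the higher percentage. Tet2 CKO replicates 2 and 3 stood above the rest and WT replicate 1 below, and the tested shares and fold changes are given with and without them. Library totals ran from 26134505 to 49414761 reads in Tet2 CKO and from 27551216 to 41988546 reads in WT. Reads elsewhere numbered 29484507 in WT replicate 1, and in the other 6 libraries between 11873131 and 14946444. Counts were even numbers in 52.1% to 55.7% of the high-count bins of a library and in 71.4% to 83.5% of the other autosomal bins that held reads. What makes most low counts even was not tested. Input libraries were not analysed here, so how many of the reads of a block came through the antibody cannot be told apart from how many copies of its sequence the genome holds.

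The 63 nuclear blocks lay on 17 of the 19 autosomes, and chromosomes 7 and 19 had none. The mitochondrial chromosome was 1 block, since all 33 of its bins were above the bound. Chromosome 9 held the most high-count bins, at 81 in 3 blocks, followed by chromosome 11 with 31 bins in 4 blocks and chromosome 6 with 27 bins in 6 blocks. Chromosome 8 had the most blocks, at 7, in 14 bins. Chromosome 17 held 18 bins, chromosome 2 held 17, chromosome 1 held 11 and chromosome 13 held 10, and no other autosome held more than 6. Most blocks were narrow: 34 were a single bin, 15 held 2 bins, 11 held 3 to 10 bins, and the 4 largest by bin number held 156 bins between them. The median width was 500 bp, and all high-count bins together covered 140.186 kb.

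Blocks were islands of reads in thinly covered surroundings. Flanks here are the 10 kb on either side of a nuclear block, together with any bins below the bound between its high-count bins. They held a mean of 0.718 to 44.0 reads per bin, with a median over blocks of 4.38. On this measure 53 of the 63 nuclear blocks averaged over 10 times their flanks. The median block averaged 28.9 times its flanks and the lowest 3.12 times. Height above the flanks was part of how the bins were chosen, so these ratios only describe them. The thickest flanks belonged to chr11a, at 44.0 reads per bin, where 28 high-count bins were spread over 61000 bp from position 3038501. Bins between those 28 were counted in that value, so it is not the surroundings of the block alone. The thinnest belonged to chr9a, at 0.718 reads per bin, where 78 neighbouring bins were all above the bound.

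Position along the chromosome set a few blocks apart. On chromosomes 9, 11, 12, 13 and 18 a block started within 3.5 Mb of position 1, the end at which mouse chromosomes carry their centromere. These 5 blocks held a mean of 32.4% of the high-count reads, nearly all of it in chr9a and chr12a. All blocks of chromosomes 11, 13 and 18 held means of only 0.0272%, 0.0138% and 0.0348%. At the other end, 4 blocks ended within 0.2 Mb of the last base of chromosomes 2, 11 and 18, with a mean share of 0.0570% between them. Of these, chr11d and chr18c reached the last base itself, and chr2f ended in the last whole bin of chromosome 2, short of a final stub. The richest block of all, chr2d, lay far from either end, at chr2:98502001-98508000.

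**Figure D1:**
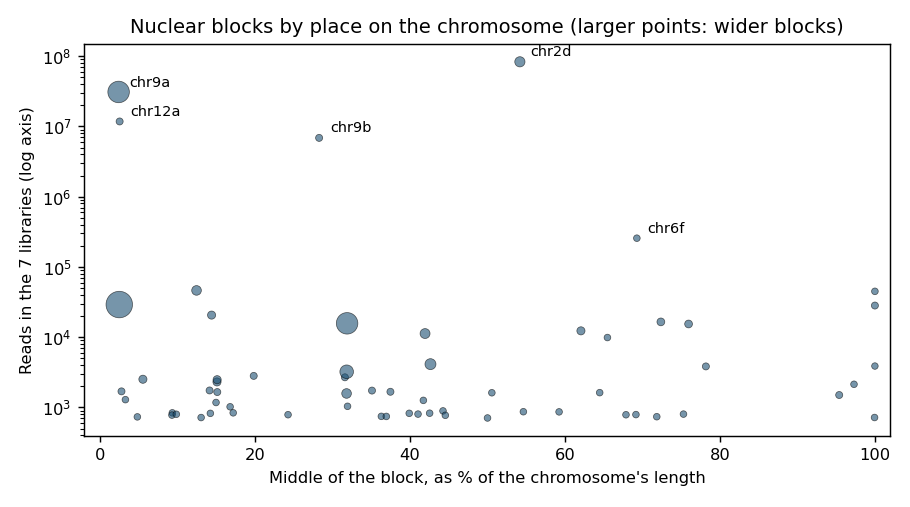
Each point is 1 of the 63 nuclear blocks, placed by its middle as a percentage of its chromosome's length (horizontal axis) and by its reads summed over the 7 libraries (vertical log axis), with larger points for wider blocks. The richest block, chr2d, lies inside its chromosome, chr9a and chr12a lie at the start of theirs, and the blocks at the right edge lie at the last bases of theirs.

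The composition was dominated by 4 blocks that together held between 99.2% and 99.5% of the high-count reads of every library. They were chr2d, chr9a at chr9:2999501-3038500, chr12a at chr12:3109501-3110500 and chr9b at chr9:35112501-35113500, with mean shares over the 7 libraries of 61.9%, 23.1%, 9.27% and 5.12%. The other 60 blocks shared between 0.526% and 0.762%. Wilson 95% intervals of the shares of the 5 largest blocks extended no further than 0.0268 points from the share, for counting error alone.

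Block chr2d held 60.9%, 62.5%, 63.7% and 62.2% of the high-count reads in Tet2 CKO replicates 1 to 4, against 62.7%, 61.0% and 60.2% in WT replicates 1 to 3. The groups overlapped, with means of 62.3% ± 1.16 in Tet2 CKO (SD, n = 4) and 61.3% ± 1.28 in WT (SD, n = 3; exact permutation test, two-sided, p = 0.343). Block chr9a held 23.1%, 23.6%, 23.2% and 22.8% in the Tet2 CKO libraries, against 22.9%, 22.9% and 23.1% in the WT libraries. These groups overlapped as well, at 23.2% ± 0.342 in Tet2 CKO (SD, n = 4) and 22.96% ± 0.0868 in WT (SD, n = 3; exact permutation test, two-sided, p = 0.343). With 35 assignments of the libraries, 0.0286 was the smallest p this test could give, and a p above the threshold does not show that the groups were alike. Leaving out Tet2 CKO replicates 2 and 3 made the difference, Tet2 CKO minus WT, 0.205 percentage points for chr2d, against 0.991 with them, and -0.0350 points for chr9a, against 0.210 with them. Leaving out WT replicate 1 instead made it 1.69 points for chr2d and 0.188 points for chr9a. Within the same-numbered pairs the difference for chr9a was 0.158, 0.693 and 0.173 points, above 0 in all 3 (exact sign permutation, two-sided, p = 0.25, below which no set of 3 pairs can go). For chr2d the pairs differed in sign, at -1.85, 1.47 and 3.49 points (exact sign permutation, two-sided, p = 0.75).

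The share of chr2d moved between 60.2% and 63.7% while the total taken by high-count bins moved between 29.8% and 74.0% of a library. The log2 ratio of chr2d to chr9a was 1.40, 1.41, 1.46 and 1.45 in Tet2 CKO replicates 1 to 4, against 1.45, 1.41 and 1.38 in WT replicates 1 to 3. Its means were 1.43 ± 0.03 in Tet2 CKO (SD, n = 4) and 1.42 ± 0.03 in WT (SD, n = 3), and the groups overlapped (exact permutation test, two-sided, p = 0.714). Over the 7 libraries the ratio of chr9b to chr2d had a coefficient of variation of 1.54%, and that of chr9a to chr2d one of 2.00%. These were the smallest of all blocks, against a median of 25.7% over the 63 blocks other than chr2d. Most of those blocks hold far fewer reads, and the part of their variation due to counting error was not separated. Block chr2d, inside chromosome 2, kept nearly fixed proportions with a block at the start of chromosome 9 and with another inside it.

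Block chr12a did not keep that proportion. It held 10.6%, 7.95%, 7.17% and 9.22% of the high-count reads in Tet2 CKO replicates 1 to 4, against 8.39%, 10.5% and 11.1% in WT replicates 1 to 3. The 2 lowest shares were in Tet2 CKO replicates 2 and 3 and the highest in WT replicate 3, and the groups overlapped. The means were 8.73% ± 1.49 in Tet2 CKO (SD, n = 4) and 9.99% ± 1.43 in WT (SD, n = 3). Its ratio to chr2d varied with a coefficient of variation of 18.1%. The block that followed it most closely was chr11a, which also starts near position 1: the SD of their log2 ratio over the 7 libraries was 0.15.

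**Figure D2:**
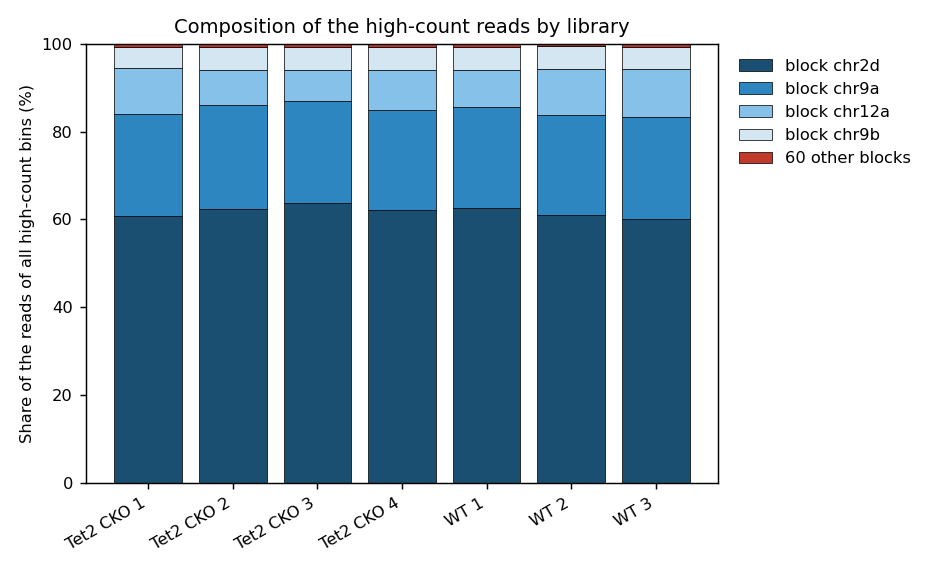
Stacked bars give, for each library (4 Tet2 CKO at the left, 3 WT at the right), the percentage of all high-count reads held by chr2d, chr9a, chr12a, chr9b and the 60 other blocks together. The bottom segment, chr2d, stays between 60.2% and 63.7%, chr12a is the segment that varies most, and the 60 other blocks are a sliver of at most 0.762%.

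Within chr2d nearly all reads lay in 2 neighbouring bins. The bin from 98507001 held 63.3% to 67.0% of the block's reads and the bin from 98506501 held 27.9% to 33.0%. The highest count of the whole table was in the first of these, 14730240 reads in Tet2 CKO replicate 3, or 29460.5 reads per base. The profile over the 10 high-count bins of chr2d correlated between libraries at 0.983 or above, and that over the 78 bins of chr9a at 0.994 or above. In chr9a the richest bin, from 3024001, held 17.2% to 18.8% of the block's reads. These correlations are across neighbouring bins of the same libraries and describe the shape only.

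One bin inside chr2d went its own way. The bin from 98503001 held 16252, 6597, 7757 and 3960 reads in Tet2 CKO replicates 1 to 4, against 2819, 5266 and 17632 reads in WT replicates 1 to 3. As a share of the block's reads it stood at 0.203% in Tet2 CKO replicate 1 and 0.1998% in WT replicate 3, and between 0.0333% and 0.0578% in the other 5 libraries. The same 2 libraries stood apart in chr12a. The first of its 2 bins held 701407, 1086854, 1310729 and 670419 reads in Tet2 CKO replicates 1 to 4, against 524564, 782175 and 820801 reads in WT replicates 1 to 3. It exceeded the second bin by 11059 reads in Tet2 CKO replicate 1 and by 11485 reads in WT replicate 3. In the other 5 libraries the 2 bins differed by only 30 to 91 reads, less than the square root of their summed count, which is the spread that separate counting would give and which ran from 1024 to 1619 over those libraries. Whether reads that span both bins were counted in each is not stated in the labels. These bins were singled out after their values were seen.

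The mitochondrial block held 23726, 75477, 119146 and 30567 reads in Tet2 CKO replicates 1 to 4, against 31819, 22727 and 30557 reads in WT replicates 1 to 3. As a share of the high-count reads this was 0.180%, 0.276%, 0.326% and 0.210% in the Tet2 CKO libraries, against 0.254%, 0.152% and 0.208% in the WT libraries. Tet2 CKO replicates 2 and 3 were the highest, WT replicate 2 was the lowest, and the groups overlapped. The means were 0.248% ± 0.0655 in Tet2 CKO (SD, n = 4) and 0.205% ± 0.0513 in WT (SD, n = 3; exact permutation test, two-sided, p = 0.371). Leaving out Tet2 CKO replicates 2 and 3 made the difference, Tet2 CKO minus WT, -0.00981 percentage points. Per 1000000 reads outside the high-count bins, mitochondrial reads numbered 1829.6, 6357, 9274 and 2118 in Tet2 CKO replicates 1 to 4, against 1079, 1802 and 2044 in WT replicates 1 to 3. Tet2 CKO replicate 1 lay within the range of the WT libraries, so the groups overlapped here too (4895 ± 3579 in Tet2 CKO, n = 4, and 1642 ± 502 in WT, n = 3, SD; exact permutation test, two-sided, p = 0.2). With Tet2 CKO replicates 2 and 3 left out, the Tet2 CKO mean was 1974 ± 204 (SD, n = 2). The log2 ratio of mitochondrial reads to chr2d, which is free of the library total, averaged -8.01 ± 0.36 in Tet2 CKO (SD, n = 4) and -8.26 ± 0.36 in WT (SD, n = 3; exact permutation test, two-sided, p = 0.4). More copies of mitochondrial DNA per cell and more capture per copy cannot be told apart in these counts.

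Reads were spread unevenly along the mitochondrial chromosome, in a shape that was shared by the libraries. The bin from 13501 to 14000 was the densest in all 7 libraries, at 2.12 ± 0.356 times the chromosome's mean in Tet2 CKO (SD, n = 4) and 2.46 ± 0.218 times in WT (SD, n = 3). The densest bin held 4.07 to 7.99 times the reads per base of the thinnest. Tet2 CKO replicates 2 and 3 had the flattest profiles, at 4.31 and 4.07 times. The difference was clearest at the low end: the first 2500 bp of the sequence, which make up 15.3% of its length, held 7.76%, 12.02%, 11.95% and 8.70% of the mitochondrial reads in Tet2 CKO replicates 1 to 4, against 7.98%, 7.12% and 7.63% in WT replicates 1 to 3. Profiles over the 33 bins correlated between libraries at 0.893 to 0.995, the highest value being that between Tet2 CKO replicates 2 and 3.

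**Figure D3:**
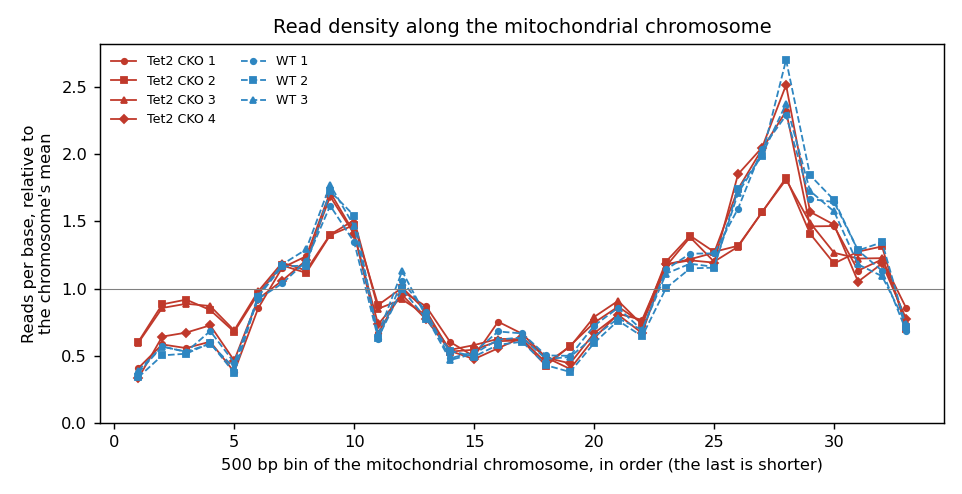
Read density in each of the 33 bins of the mitochondrial chromosome, in order, as a multiple of the chromosome's mean (4 Tet2 CKO libraries in solid red, 3 WT libraries in dashed blue). All lines peak in the bin from 13501, and Tet2 CKO replicates 2 and 3 lie highest over the first 5 bins and lowest at the peak.

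A nuclear block tracked the mitochondrial one closely. Block chr1b, at chr1:24618001-24623000, held 3453, 10288, 16541 and 4290 reads in Tet2 CKO replicates 1 to 4, against 4313, 3036 and 4400 reads in WT replicates 1 to 3. For each mitochondrial read it held 0.146, 0.136, 0.139 and 0.140 reads in the Tet2 CKO libraries, against 0.136, 0.134 and 0.144 in the WT libraries. The ratio averaged 0.140 ± 0.00390 in Tet2 CKO (SD, n = 4) and 0.138 ± 0.00553 in WT (SD, n = 3). Its coefficient of variation over the 7 libraries was 3.18%, while the ratio of the mitochondrial block to chr2d varied by 24.2%. The profile over the 10 bins of chr1b correlated between libraries at 0.947 to 0.994. Whether the sequence of chr1b resembles mitochondrial DNA was not examined here.

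The single bin chr6f, at chr6:103599001-103599500, was the richest of the smaller nuclear blocks. It held 22880, 64036, 70882 and 25204 reads in Tet2 CKO replicates 1 to 4, against 22892, 23130 and 27600 reads in WT replicates 1 to 3. As a share of the high-count reads it was near the mitochondrial block, at 0.194% ± 0.0286 in Tet2 CKO (SD, n = 4) and 0.175% ± 0.0180 in WT (SD, n = 3), and the groups overlapped. Its flanks held 1.76 reads per bin. The single bin chr5c, with 64 to 235 reads in Tet2 CKO and 73 to 95 in WT, had the third smallest coefficient of variation of its ratio to chr2d, at 10.4%. Counting error on so few reads is part of that value and was not separated from it.

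The 3 blocks that reached the last base or the last whole bin of their chromosomes, chr2f, chr11d and chr18c, had their lowest share in the same library. Block chr18c held 5036, 10024, 11875 and 3872 reads in Tet2 CKO replicates 1 to 4, against 2495, 5147 and 6514 reads in WT replicates 1 to 3. Block chr2f held 2688, 6400, 8255 and 2580 reads in the Tet2 CKO libraries, against 1598, 3294 and 3401 reads in the WT libraries. WT replicate 1 had the lowest share of the high-count reads in both, at 199.5 per 1000000 for chr18c and 128 per 1000000 for chr2f. In the other 6 libraries the range was 266 to 444 per 1000000 for chr18c and 177 to 234 per 1000000 for chr2f. The ratio of chr18c to chr2f stayed between 1.44 and 1.92. Block chr11d, the last 356 bp of chromosome 11, was chosen after its values were seen and had its lowest share in WT replicate 1 as well, at 16.2 per 1000000 against 24.5 to 35.8 per 1000000 elsewhere. The fourth block near an end, chr2e, also chosen after its values were seen, went the other way. It held 36, 115, 134 and 105 reads in the Tet2 CKO libraries, against 182, 63 and 84 reads in the WT libraries, and its share was highest in WT replicate 1, at 14.6 per 1000000 against 2.73 to 7.22 elsewhere.

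Other pairs of blocks on different chromosomes also moved in step. Block chr13c at chr13:74666001-74668500 held 1494, 2820, 2886 and 1519 reads in Tet2 CKO replicates 1 to 4, against 540, 1431 and 1624 reads in WT replicates 1 to 3. Its ratio to chr17b, at chr17:13743501-13746000, stayed between 0.560 and 0.626 in all 7 libraries (coefficient of variation 4.52%). Per 1000000 high-count reads, chr13c was lowest in WT replicate 1, at 43.2, and between 78.9 and 114 in the other 6 libraries. Block chr17b was named after its values were seen. Block chr10a, with 291 to 537 reads in Tet2 CKO and 239 to 431 in WT, had no partner as close: the SD of its log2 ratio to the block most like it, chr11a, was 0.28.

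Of the 64 blocks, 15 differed by more than 4-fold between the library with the highest and the one with the lowest share, and 24 by less than 2-fold. The median fold was 2.22. Some orders of the libraries recurred over the 64 blocks. In 11 blocks the 2 lowest shares were those of Tet2 CKO replicates 2 and 3, and in 14 blocks these libraries had the 2 highest. In 8 blocks the 2 lowest shares were those of Tet2 CKO replicate 1 and WT replicate 3, and in 9 blocks these had the 2 highest. Other pairs of libraries were lowest about as often, Tet2 CKO replicate 1 with WT replicate 2 in 9 blocks and Tet2 CKO replicate 4 with WT replicate 2 in 7. Since a share falls when another block rises, both scales are given below.

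**Figure D4:**
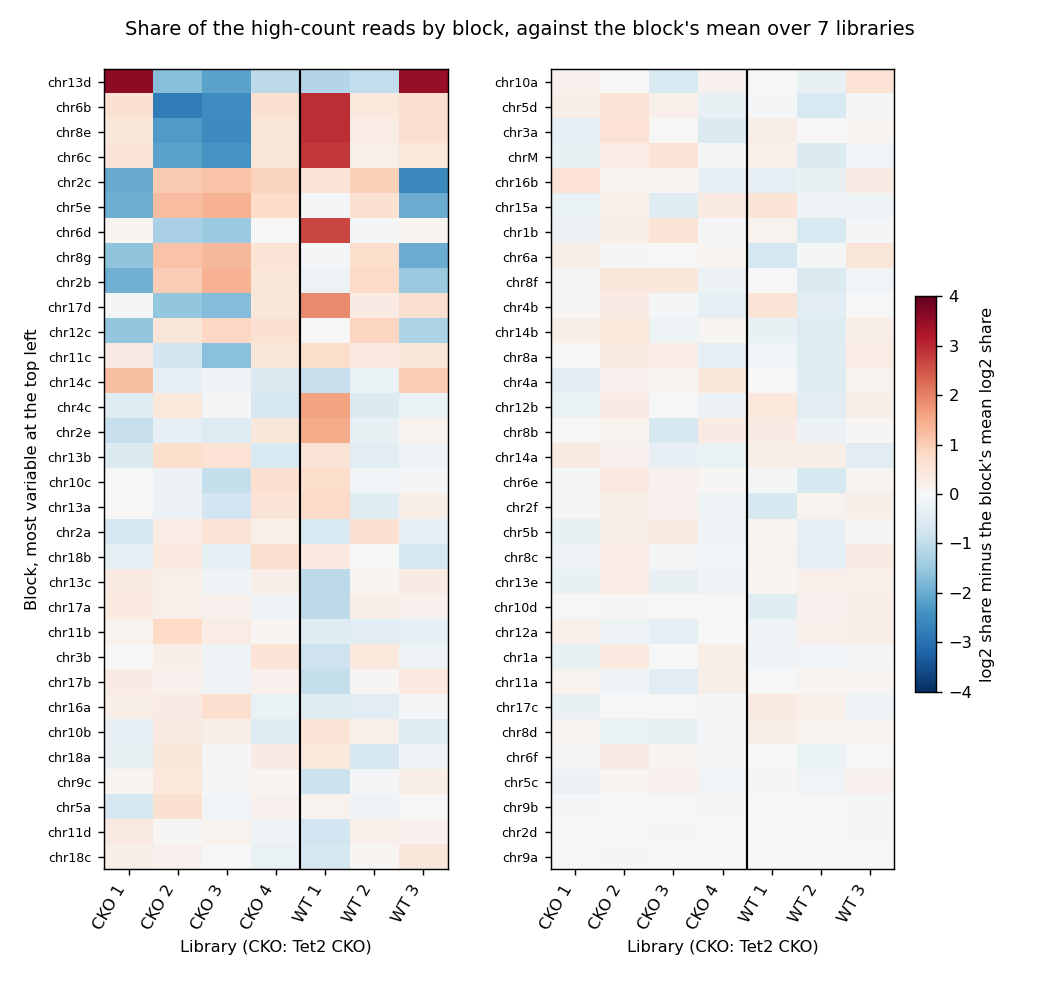
Colour gives the log2 share of the high-count reads in each library minus the block's mean over the 7 libraries (red higher, blue lower), for the 64 blocks ordered from the most variable at the top left to the least variable at the bottom right. Columns are the 4 Tet2 CKO libraries, then the 3 WT libraries after the black line. The top rows show blocks high in WT replicate 1 and blocks that set Tet2 CKO replicate 1 and WT replicate 3 apart from the rest, and the bottom rows, with chr2d, chr9a and chr9b, are nearly white.

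Block chr6d, the widest of chromosome 6 with 17 bins over 39000 bp, was high in WT replicate 1, which is in part how it was chosen: 15 of its 17 bins would not pass the bound of 100 in the mean of the other 6 libraries. It held 1392, 1093, 1279 and 1413 reads in Tet2 CKO replicates 1 to 4, against 7703, 1377 and 1497 reads in WT replicates 1 to 3. Per 1000000 high-count reads this was 106, 40.0, 34.98 and 97.2 in the Tet2 CKO libraries, against 616, 92.2 and 102.1 in the WT libraries. Per 1000000 reads outside the high-count bins it was 107, 92.1, 99.6 and 97.9 in the Tet2 CKO libraries, against 261, 109 and 100.2 in the WT libraries. On this scale 6 libraries lay between 92.1 and 109, and WT replicate 1 stood 2.39 times above the next. Its profile over bins was not shared by the libraries, with correlations between pairs of libraries from -0.462 to 0.915.

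Block chr8e at chr8:56201501-56209000 held 394, 125, 142 and 444 reads in Tet2 CKO replicates 1 to 4, against 2127, 401 and 499 reads in WT replicates 1 to 3. Per 1000000 reads outside the high-count bins its lowest values, 10.5 and 11.1, were those of Tet2 CKO replicates 2 and 3. It was 30.4 and 30.8 in Tet2 CKO replicates 1 and 4, against 72.1, 31.8 and 33.4 in WT replicates 1 to 3. Block chr17d at chr17:39980001-39985500 held 1026, 751, 885 and 1577 reads in the Tet2 CKO libraries, against 3712, 1490 and 1827 reads in the WT libraries. Per 1000000 reads outside the high-count bins chr17d stood at 63.3 to 109 in Tet2 CKO and 118 to 126 in WT. On that scale the groups did not overlap in chr17d, nor in chr8e. Other blocks did so too, among them chr6b, with Tet2 CKO below WT, and chr11b, with Tet2 CKO above WT. The share of all features that did so was not computed, so nothing is read from these blocks. In chr17d and chr8e the groups overlapped after TMM scaling, by which 5.46% of all features tested had all 4 Tet2 CKO libraries below all 3 WT ones. Per 1000000 high-count reads the groups of chr17d overlapped too, at 24.2 to 108 in Tet2 CKO and 99.7 to 297 in WT. The blocks chr6b and chr6c beside chr6d, which were named after their values were seen, were likewise highest in WT replicate 1, with 794 and 1602 reads, and lowest in Tet2 CKO replicates 2 and 3. Without WT replicate 1 the bound would be passed by 0 of the 6 bins of chr6b and chr6c, by 1 of the 4 bins of chr8e and by 7 of the 10 bins of chr17d. The ratio of chr8e to chr6c was 1.10 to 1.203 in Tet2 CKO and 1.28 to 1.40 in WT. How many pairs of blocks set the groups apart in this way was not counted. Counting error was not separated either, with 125 and 113 reads in Tet2 CKO replicate 2. Since chr6c was named after its values were seen, no difference between genotypes is read from this ratio.

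Tet2 CKO replicate 1 and WT replicate 3 shared an order of their own. Block chr13d, the bin at chr13:77578001-77578500, held 708, 38, 38 and 32 reads in Tet2 CKO replicates 1 to 4, against 25, 34 and 749 reads in WT replicates 1 to 3. Its exact Poisson 95% intervals, which cover counting error only, were 657 to 762 reads in Tet2 CKO replicate 1 and 696 to 805 in WT replicate 3, and no higher than 52.2 reads in the other 5. The mean of this bin exceeds the bound through these 2 libraries only. Block chr5e, the bin at chr5:148423001-148423500, went the other way, with 32, 608, 909 and 225 reads in the Tet2 CKO libraries, against 114, 214 and 35 reads in the WT libraries. Block chr8g, at chr8:86280501-86281000, followed chr5e, with 196, 2756, 4142 and 980 reads in the Tet2 CKO libraries, against 540, 1102 and 170 reads in the WT libraries. The ratio of chr5e to chr8g stayed between 0.163 and 0.230 in all libraries. Blocks chr2b, chr2c and chr12c were also low in these 2 libraries, with 12 to 133 reads in them, while chr14c was high in them, at 12.6 and 11.1 per 1000000 high-count reads against 2.88 to 5.03 elsewhere. Blocks chr8g, chr2b, chr2c, chr12c and chr14c were chosen after their values were seen. Each group holds 1 of these 2 libraries, so genotype does not separate them. The deposited column names of these 2 libraries hold no hyphen, while those of the other 5 are joined by hyphens, and whether that spelling goes with a difference in handling was not tested.

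**Figure D5:**
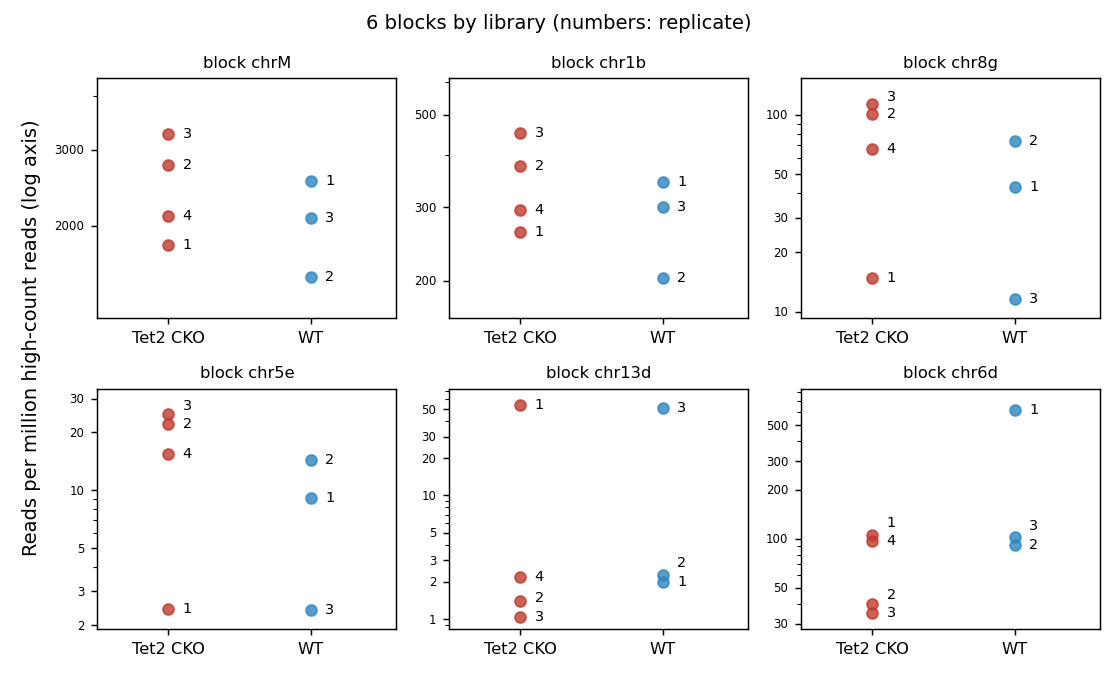
Reads per 1000000 high-count reads (log axis) in the 4 Tet2 CKO libraries (left, red) and the 3 WT libraries (right, blue) for 6 blocks, with each point marked by its replicate number. Blocks chrM and chr1b rank the libraries in nearly the same order, chr8g and chr5e are lowest in Tet2 CKO replicate 1 and WT replicate 3, chr13d is highest in those same libraries at 53.8 and 51.1, and chr6d is highest in WT replicate 1 at 616.

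Genotype was then tested in the counts of all blocks together with all other bins that had a mean raw count of at least 10. In edgeR's quasi-likelihood test, 0 of the 64 blocks passed an adjusted p under 0.05, and 0% of all 232039 features passed it. At an unadjusted p under 0.05 there were 3 blocks higher and 2 lower in Tet2 CKO, among 5022 features higher (2.16%) and 10890 lower (4.69%). The blocks were chr11b, chrM and chr1b, which were higher, and chr6d and chr17d, which were lower. DESeq2's Wald test called 0 of the 63 blocks to which it gave an adjusted p, while it called 0.546% of the 191135 features with an adjusted p, 30 higher and 1013 lower. At an unadjusted p under 0.05 it had 5 blocks higher and 5 lower, among 7934 features higher (3.42%) and 22085 lower (9.52%). Tested as single bins, 0 of the 282 high-count bins were called by edgeR, with 17 higher and 5 lower at an unadjusted p under 0.05, among 5058 features higher (2.18%) and 10901 lower (4.69%). DESeq2 called 0 of the 278 bins to which it gave an adjusted p, against 30 higher and 1015 lower of 191312 features. At an unadjusted p under 0.05 it had 30 high-count bins higher and 23 lower, among 7948 features higher (3.42%) and 22097 lower (9.51%). With the same-numbered libraries treated as pairs, edgeR called 0 blocks and 0 bins. At an unadjusted p under 0.05 that fit had 10 blocks higher and 5 lower, against 2.87% and 18.7% of all features, and 62 high-count bins higher and 28 lower, against 2.91% and 18.7%.

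The fitted log2 fold changes, Tet2 CKO over WT, were above 0 in 56 of the 64 blocks, with a median of 0.45, while 48.3% of all features tested were above 0, with a median of -0.05. The high-count bins were chosen on a raw mean to which Tet2 CKO replicates 2 and 3, with the most high-count reads, contributed most: 47 of the 282 bins, including every bin of 28 blocks, would not pass the bound in the mean of the other 5 libraries. The choice of bins therefore bears on the direction, and nothing is read from the count of 56. The same holds for the counts of blocks and bins at an unadjusted p under 0.05. Bins of the same block are not separate observations either. The fold changes rested on which libraries were in the fit. Without WT replicate 1 the median of the blocks was 0.16, with 48 above 0. Without Tet2 CKO replicates 2 and 3 it was 0.22, and with WT replicate 1 also left out it was -0.05, with 28 blocks above 0. With scaling by library size only, 45 blocks were above 0 with a median of 0.16, against a median of -0.39 over all features. The mitochondrial block had a log2 fold change of 0.83 (SE 0.36), chr1b of 0.84 (SE 0.37), chr2d of 0.45 (SE 0.29) and chr12a of 0.15 (SE 0.32). The highest was that of chr5e, at 1.41 (SE 0.84), and the lowest that of chr8e, at -1.48 (SE 0.68). Without Tet2 CKO replicates 2 and 3 these were 0.23 for chrM, 0.27 for chr5e and -0.72 for chr8e, and with WT replicate 1 also left out 0.07, 0.0035 and -0.06. Single libraries moved the last 2 of these blocks too: chr5e was at 2.52 without WT replicate 2 and 0.94 without Tet2 CKO replicate 3, and chr8e at -0.82 without WT replicate 1. Without Tet2 CKO replicate 3, chrM was at 0.50. The adjusted p from edgeR was 0.666 for chrM, chr1b, chr5e and chr8e alike.

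After TMM scaling 1 of the 64 blocks, chr11b, had every Tet2 CKO library above every WT library, against 5.26% of all features, and 0 blocks had every Tet2 CKO library below, against 5.46%. Block chr11b is the bin at chr11:12037501-12038000, with 76, 246, 235 and 80 reads in Tet2 CKO replicates 1 to 4, against 46, 57 and 60 reads in WT replicates 1 to 3. It was chosen after its values were seen, and it passes the bound of 100 only through Tet2 CKO replicates 2 and 3, so its direction was in part set by the rule. Its share of the high-count reads was 5.50 to 8.99 per 1000000 in Tet2 CKO and 3.68 to 4.09 per 1000000 in WT.

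The bound of 100 runs through a slope of values. The bins just inside it were at chromosome 11, from 3040501, with a mean of 100.143 reads, and at chromosomes 6 and 11 with means of 100.571. The bins just outside were at chromosome 11, from 3072501, with a mean of 99.7143, and at chromosomes 8 and 11 with means of 99.5714. A bound of 50 would give 707 bins in 287 blocks, and a bound of 200 would give 170 bins in 25 blocks. With the median over libraries in place of the mean, 226 bins in 43 blocks would pass.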

How the data were processed

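The 7 libraries of 5hmC-captured hippocampal DNA (4 Tet2 CKO, 3 WT) were deposited by the authors as raw counts of reads in consecutive 500 bp bins, with no normalization. The submitters' processing notes name Bowtie2, HOMER, DESeq2 and mm9. Versions and roles are not stated there, nor how duplicate reads and reads with several matching positions were treated, which bears on every repeat.

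Groups come from the labels. The blocks and lists were chosen with earlier results of these data known. Counts of each block were summed. Blocks, or single bins, were tested with all other bins of mean count 10 or more in edgeR 4.0.16 (R 4.3.3; TMM factors, quasi-likelihood test on genotype, Benjamini-Hochberg adjustment over all features). DESeq2 1.42.0 was an alternative. SEs of log2 fold changes were derived from each F statistic. Single values were compared by exact permutation of the 7 libraries. Python 3.11.15, numpy 2.4.6, pandas 2.3.3 and scipy 1.17.1 were used. The code of the fit was also run on simulated counts, drawn with the same spread for every feature. That run does not measure power or error in the real libraries.

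By rule, 18 blocks were named: the mitochondrial one, the 10 others with the largest mean share, the widest of a chromosome where it spanned 5 bins or more, those with the highest and the lowest log2 fold change, and the 3 with the largest and the 3 with the smallest coefficient of variation of the ratio to the largest block. Others are marked as chosen after their values were seen.

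Replicates 1 to 3 carry the same numbers in both groups. Deviations from the group means over 226979 windows of 10 kb correlated at 0.548, 0.298 and 0.340 for the 3 numbers, above the criterion of 0.1. The numbers were therefore treated as pairs in an alternative fit and in differences within pairs, where Tet2 CKO replicate 4 had no partner. The main fits and the permutation tests between groups used genotype only. Correlations between libraries with different numbers are not given here. No 2 libraries agreed within sampling noise.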

Additional observations from a re-analysis of the deposited data

Results flagged for a closer look

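Among the Tet2 CKO libraries, the share of chr13d was far from the others in 1 library. It was 53.8 per 1000000 high-count reads in Tet2 CKO replicate 1 and 1.39, 1.04 and 2.20 in replicates 2, 3 and 4, so that the gap made up 0.978 of the group's range, past Dixon's 95% critical value for 4 samples. Dixon's ratio was examined for 24 values of the Tet2 CKO group and 1 was past it, and chance flags about 1 in 20 groups. WT replicate 3 had a share of 51.1 per 1000000, and the ratio was not examined for the WT group, with 3 libraries.

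Chromosomes X and Y, which lay outside the rule, also held bins above the bound of 100. There were 23 such bins on chromosome X, with between 4761 and 12120 reads per library in Tet2 CKO and between 3804 and 6026 in WT. Chromosome Y held 70, with between 7993 and 17501 reads in Tet2 CKO and between 8334 and 10645 in WT. Tet2 CKO replicates 2 and 3 had the most reads on both chromosomes. Per 1000000 high-count reads they did not stand above the rest. On chromosome X they were at 352 and 331, against 304 to 411 in WT. On chromosome Y they were at 633 and 479, against 558 to 851 in WT. Per 1000000 reads outside the high-count bins they were the highest of the 7 libraries. On chromosome X that was 812 and 943, against 129 to 426 in WT, and on chromosome Y 1458 and 1362, against 361 to 704.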

How the results depend on the processing

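No block and no single bin was called under any alternative other than the fit with no filter on low counts, which called 35 blocks and 133 bins. With blocks, it called 41 features higher and 22 lower of 4856787, of which 30 and 5 were blocks. With single bins, it called 134 higher and 11 lower of 4857005, of which 133 and 0 were high-count bins. Without the filter the SE of chr2d was 4.62e-09, against 0.293 with it, so these calls were not used, and the cause was not tested. DESeq2 size factors, library size only, a mean of at least 20, an adjusted p under 0.10, no chromosomes X and Y, DESeq2's Wald test and each library left out gave 0 calls. Without Tet2 CKO replicates 2 and 3, the difference (Tet2 CKO minus WT) turned to -0.00981 percentage points for the mitochondrial share, -0.0350 points for the share of chr9a and -0.0484 for the log2 ratio of mitochondrial reads to chr2d. With WT replicate 1 also left out, an alternative chosen after the data were seen, the share of chr9a differed by -0.0574 points, and the log2 fold changes of chr2d and chr9a were -0.0384 and -0.0630, the lowest over all fits with libraries left out. The highest were 0.668 and 0.646, without WT replicate 2. With each library left out in turn, the difference in the log2 ratio of chr2d to chr9a ran from -0.00616 to 0.0280, the lower value without WT replicate 3. At an unadjusted p under 0.05, edgeR's counts of blocks ran from 0 to 6 higher and from 0 to 5 lower in Tet2 CKO over these fits. Among all 232039 features the same fits had from 2532 to 6273 higher and from 2430 to 19615 lower. Other bounds and joining distances turned no difference in shares or ratios.

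With the replicate block, which treats the same-numbered libraries as pairs, 0 blocks and 0 bins were called, and 10 blocks were higher and 5 lower at an unadjusted p under 0.05, among 6649 features higher and 43427 lower of 232039. Within pairs the mean difference was 0.0556 percentage points for the mitochondrial share, 1.04 points for chr2d and 0.342 points for chr9a, and 0.00291 and 0.31 for the log2 ratios of chr2d to chr9a and of mitochondrial reads to chr2d. Of these, only the share of chr9a had the same sign in all pairs. The pairs stood at -0.0743, 0.124 and 0.117 points for the mitochondrial share and -1.85, 1.47 and 3.49 points for chr2d. For the log2 ratios they stood at -0.0530, -0.00877 and 0.0705 (chr2d to chr9a) and at -0.455, 0.825 and 0.563 (mitochondrial reads to chr2d). The block changed no call.

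No molecular identifiers are described for the reads, so intervals cover counting error only. The thinnest high-count bin of a library held between 4 and 34 reads.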
